A study of Homo sapiens with 6 samples.

Results

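92.1 is an established human cell line of uveal melanoma, the tumour that arises from melanocytes of the eye. Its response to activated T cells was read from 2 of the 6 arrays of the series, 1 of 92.1 grown alone and 1 of 92.1 grown with T cells. The members were chosen by these sample labels and not by any measured value. The other 4 arrays, of the uveal melanoma lines Mel 270 and Mel 290 alone and with T cells, served as background.

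For both arrays of 92.1, 80000 cells were plated, and for each other line 100000. Serum-free medium was given when 92.1 and Mel 270 were nearly confluent and Mel 290 was confluent, and culture lasted 64 h. In co-culture, 1500000 T cells from volunteers' blood, activated with beads carrying antibodies to CD3 and CD28, sat in 3 ml above the melanoma cells in an insert with 0.4 µm pores. Melanoma cells and T cells were thus separated by a membrane that soluble factors can pass. Which donor's T cells met which line is not given in the sources used here, and 92.1 started with fewer cells per well than the other lines. There was 1 array a side, so the differences in 92.1 carry no test and no replicate error.

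Activated T cells secrete interferon-gamma and TNF. Interferon-gamma binds its receptor, which acts through JAK1 and JAK2 to induce IRF1 and then a wide set of genes for chemokines, antigen presentation and cell-autonomous defence. TNF acts through NF-kappaB, which induces chemokines, adhesion molecules and its own inhibitors. Both cytokines can slow the division of tumour cells.

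The cells carried melanocyte markers in both states. In 92.1 alone and with T cells, the log2 value was 13.19 and 13.07 for TYRP1, 13.08 and 12.73 for PMEL, and 12.18 and 11.93 for MLANA. The lineage factors MITF (11.01 and 10.22) and SOX10 (8.87 and 8.80) were also high, and DCT was not analysed here. T cell markers had close values in the 2 states. Across the 24 measured ones, at 1 probe set per gene, differences ran from -0.37 to 0.15. For LTB the probe set used gave -0.28, and another gave 0.66. CD3D stood at 5.28 alone and 5.19 with T cells, CD3E at 4.62 and 4.65, and CD3G at 4.54 and 4.63. The median level of the 24 was 5.59 alone and 5.43 in co-culture. Monocyte, platelet and erythroid markers had no tested member 2-fold apart, nor had those of retinal pigment epithelium and endothelium (5 tested). Of 6 tested B cell markers, FCRLA (8.73 and 11.33) and CD22 (6.83 and 7.90) were higher with T cells, whereas CD79A, CD79B and PAX5 differed by -0.20, -0.11 and -0.11. The part of B cells in these 2 values was not tested.

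Values are log2 signals of Affymetrix probe sets, 1 per gene, and a difference is the value with T cells minus the value alone. A gene was tested if its mean over the 6 arrays was at least 5.80, the 25th percentile, since low values are mostly background. Of 13808 tested genes, 501 (3.63%) were at least 2-fold higher in 92.1 with T cells and 374 (2.71%) at least 2-fold lower. The distribution was lopsided. At 16-fold or more there were 44 genes higher and 0 lower, and 171 were at least 4-fold higher against 23 at least 4-fold lower. The median difference over all tested genes was -0.08, and 60.1% of them lay below 0. Because the filter used the mean of all 6 arrays, a gene low in every line alone was tested only where co-culture raised that mean, so counts of tested members are partly set by the filter. In Mel 270 the 2-fold counts were 730 higher (5.29%) and 624 lower (4.52%), and in Mel 290 they were 286 (2.07%) and 317 (2.3%). Of the 501 higher genes in 92.1, 124 (24.8%) were also 2-fold higher in both other lines and 190 (37.9%) in neither. Of the 374 lower genes, 32 (8.56%) were 2-fold lower in both other lines and 165 (44.1%) in neither.

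**Figure D1:**
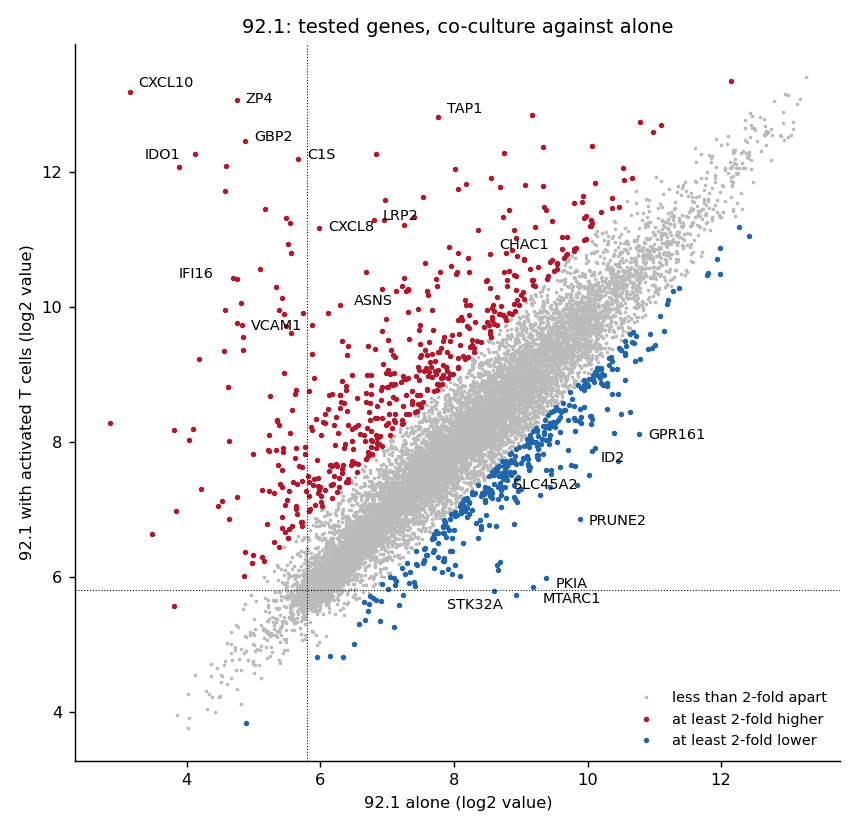
Log2 value of each tested gene in 92.1 alone (x axis) and with activated T cells (y axis). Red points are at least 2-fold higher with T cells (501 genes), blue points at least 2-fold lower (374 genes), grey points the rest, and dotted lines mark the filter level of 5.80. The red points reach much farther from the diagonal than the blue ones, and several of the farthest lay below 5.80 alone.

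Most of the largest gains were in chemokine genes and in targets of interferon. Values under 5.80 were raised to it before ranking, so that background did not set the order. Counted this way, 483 genes (3.5%) were at least 2-fold higher in 92.1 and 362 (2.62%) lower. CXCL10, which attracts activated T cells through the receptor CXCR3, stood at 3.14 alone and 13.18 with T cells, the largest difference (10.04, or 7.38 with low values raised). CXCL11 (3.88 and 12.08) and CXCL9 (4.58 and 12.09), the other CXCR3 ligands, followed at 8.20 and 7.51. CXCL8, a neutrophil attractant, went from 5.98 to 11.17. The CXCR2 ligands CXCL1 (-0.00) and CXCL5 (0.09) stayed close to their level alone. Of 10 tested CXC and CX3C chemokines 5 were at least 2-fold higher, against 3.63% of all tested genes, and none was 2-fold lower. Of those 10, 5 were below the filter level alone in all 3 lines, and 14 were measured.

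Of 8 tested CC chemokines 3 were at least 2-fold higher in 92.1, against 3.63% of all tested genes, and 3 were in each other line. CCL2, which attracts monocytes, stood at 5.46 alone and 9.90 with T cells. CCL5, which attracts T cells and monocytes, stood at 5.57 and 8.48, a difference of 2.91 against 6.39 in Mel 270 and 6.74 in Mel 290. The co-culture level of CCL5 in 92.1 was thus below those of Mel 270 (12.66) and Mel 290 (12.87), from similar levels alone (6.26 and 6.13). CCL18 (difference 1.16) was the other tested member above 2-fold. For CCL3 the difference was -0.17 in 92.1 against 1.41 and 1.51 in the other lines. CCL8 and CCL20, below the filter, differed by -0.33 and 0.49 in 92.1.

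The upstream chain was present in 92.1. The receptor chains IFNGR1 (8.42 and 8.86) and IFNGR2 (8.60 and 8.72) were well above the filter in both states, and JAK2 went from 5.77 to 7.93. JAK2 was the 1 of 10 tested receptor and JAK-STAT genes that was 2-fold higher, against 3.63% of all tested genes. Of 7 interferon regulatory factors 4 were 2-fold higher: IRF1 (5.56 and 10.79), BATF2 (6.94 and 9.15), IRF9 (7.49 and 9.45) and IRF2 (9.05 and 10.70). IRF8, below the filter, stood at 5.16 and 6.68. Among 14 brakes on this pathway, SOCS3 (6.01 and 8.10) and SOCS1 (6.69 and 7.74) were 2-fold higher, and the median of the list was -0.03.

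Downstream interferon targets were higher in most cases, many from levels near or below the filter. Over all 18417 measured genes, 561 were at least 2-fold higher in 92.1. Of 6 measured guanylate-binding proteins, GTPases that attack intracellular pathogens, 5 were 2-fold higher, led by GBP2 (4.87 and 12.46) and GBP5 (4.58 and 11.72). GBP6 (3.87 and 4.11) did not pass the filter, and 4 of the 5 that did were below it alone in all 3 lines. Of 37 measured antiviral genes 27 were 2-fold higher, among them IFI44L (5.16 and 11.45), XAF1 (5.51 and 10.93) and TRIM22 (5.09 and 10.56). IFITM1, which blocks virus entry, went from 6.83 to 12.26. UBD, a ubiquitin-like protein, stood at 5.49 and 11.31. ISG15 (6.26 and 6.14), a ubiquitin-like modifier, and CMPK2 (6.70 and 6.49) were not among them. Of 6 measured APOL genes 5 were 2-fold higher, from APOL3 (1.58) to APOL6 (5.66). Probes of such paralogs can cross-react, so single members are uncertain.

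Tryptophan breakdown genes included IDO1, its first enzyme, at 4.13 alone and 12.27 with T cells. KYNU, a later enzyme of that pathway, stood at 3.80 and 8.17. The list also held WARS1, the tryptophanyl-tRNA synthetase, which is not a breakdown enzyme. WARS1 went from 9.16 to 12.84, with differences of 1.61 in Mel 270 and 2.44 in Mel 290. The other 3 of the 6 tested members lay between -0.89 and 0.13.

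The promoters of several of these genes carry the letters that interferon and NF-kappaB factors are known to bind. They are shown 5′ to 3′ on the gene's strand, from RefSeq (GRCh38.p14), with matches in capitals. In CXCL10 (chr4:76023600-76023728, minus strand, 231 to 103 bases before the start) capitals mark 1 interferon-stimulated response element (ISRE) core and 2 kappaB sites. In IRF1 (chr5:132490804-132490907, minus strand, 134 to 31 bases before) they mark a gamma-activated site (GAS) core and a kappaB site. In TAP1 (chr6:32853757-32853848, minus strand, 144 to 53 bases before) they mark 2 overlapping ISRE cores and a kappaB site. In VCAM1 (chr1:100719670-100719741, plus strand, 72 to 1 bases before) they mark a kappaB site and an ISRE core, and in ICAM1 (chr19:10271035-10271063, plus strand, 85 to 57 bases before) a GAS core.
CXCL10: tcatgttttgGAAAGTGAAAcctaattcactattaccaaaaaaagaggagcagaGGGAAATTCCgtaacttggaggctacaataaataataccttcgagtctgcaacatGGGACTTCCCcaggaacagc
IRF1: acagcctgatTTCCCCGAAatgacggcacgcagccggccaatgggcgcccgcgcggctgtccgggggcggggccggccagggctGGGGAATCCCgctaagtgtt
TAP1: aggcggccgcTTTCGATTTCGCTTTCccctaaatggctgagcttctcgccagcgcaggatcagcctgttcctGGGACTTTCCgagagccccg
VCAM1: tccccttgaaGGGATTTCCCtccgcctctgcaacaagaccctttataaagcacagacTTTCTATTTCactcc
ICAM1: ggcgcgaggtTTCCGGGAAagcagcaccg

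An ISRE core (GAAA, any 2 bases and GAAA, or TTTC, any 2 bases and TTTC on the other strand) stood in the 250 bases before the start in 40 of 185 promoters (21.6%) of genes at least 4-fold higher in 92.1. Over 15624 promoters of tested genes it stood in 2.32%. A GAS core (TTCNNNGAA) stood in 16.2% against 5.4%, and a kappaB site in 14.1% against 6.32%, both strands searched and motifs counted separately. Of the 171 genes, 127 had a promoter in the table, some with several starts. For the 374 genes at least 2-fold lower, ISRE cores stood in 1.09% of promoters. A match describes letters in a window and does not show that a factor binds there.

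Antigen presentation genes were broadly higher in 92.1. Of 15 tested class I genes 12 were at least 2-fold higher (median 2.31), against 3.63% of all tested genes, and none was 2-fold lower. TAP1, a subunit of the peptide transporter, stood at 7.77 alone and 12.82 with T cells, against 8.28 and 12.28 in Mel 270 and 9.97 and 12.35 in Mel 290. The transporter's other subunit TAP2 (8.06 and 11.75), the immunoproteasome subunit PSMB9 (6.11 and 9.90) and B2M (10.07 and 12.38), the light chain of class I, were higher too. NLRC5, a transactivator of class I genes, went from 6.33 to 8.91, with differences of -0.04 in Mel 270 and 1.22 in Mel 290. The chaperones CANX (0.03) and CALR (-0.14) stayed near their level alone, and the class I heavy chains were not analysed here.

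Class II genes were higher in part. Of 9 tested members 6 were 2-fold higher (median 1.66), against 3.63% of all tested genes. Of those 9, 3 were below the filter level alone in all 3 lines. Among the 6 were CTSS (5.54 and 11.24), a protease that trims the invariant chain, HLA-DPA1 (7.25 and 11.21) and HLA-DMA (7.68 and 9.95). CIITA, the transactivator of class II genes, stood at 6.62 and 6.98. Among 13 checkpoint and costimulatory ligands 3 were 2-fold higher: CD274, which encodes PD-L1 (4.76 and 9.76), PDCD1LG2, which encodes PD-L2 (4.75 and 7.19), and CD47 (10.37 and 11.62). Of 9 ligands of NK cell receptors only CLEC2B (7.24 and 8.53) passed 2-fold. The stress ligands MICA and MICB, seen by the receptor NKG2D, differed by -0.57 and -0.68 in 92.1, and by 0.64 and 0.40 in Mel 270.

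The NF-kappaB list had 11 of 20 tested members 2-fold higher (median 1.17), against 3.63% of all tested genes. Those 11 included the feedback inhibitors TNFAIP3 (5.38 and 9.96) and NFKBIA (8.69 and 11.78), and SOD2, a mitochondrial antioxidant enzyme (8.01 and 12.04). Complement genes had 6 of 11. C1S, a protease of the first complement complex, stood at 5.66 and 12.19, and C1R at 6.95 and 11.29. C3 stood at 5.45 and 9.02 in 92.1, a difference of 3.57 against 7.60 in Mel 270 and 1.39 in Mel 290. CFB, a protease precursor of the alternative pathway, stood at 6.29 and 7.26 in 92.1, while its differences were 4.18 in Mel 270 and 4.56 in Mel 290. Other CFB probe sets gave 1.45 and 1.51 in 92.1.

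Several acute phase genes and IL6 differed by far less in 92.1 than in Mel 270. SAA2 stood at 5.46 alone and 4.91 with T cells, both below the filter, against 5.22 and 11.98 in Mel 270 and 5.36 and 9.24 in Mel 290. IL6 stood at 5.39 and 5.78, against 5.19 and 8.67 in Mel 270 and 5.77 and 10.91 in Mel 290. LCN2 (-0.24) and LBP (-0.23) also stayed near their level alone, with 5.33 and 4.54 in Mel 270. TNFAIP6 (4.63 and 8.01), SERPINA3 (5.43 and 7.90) and A2M (12.15 and 13.34) were the 3 of 7 tested acute phase genes that were 2-fold higher in 92.1. Over all tested genes 3.63% were. In Mel 270, 6 of the 7 were 2-fold higher and in Mel 290, 3. The list median was 0.87 in 92.1 and 0.67 in Mel 290, against 4.54 in Mel 270. By median, 92.1 was thus close to Mel 290, but not gene by gene. The difference was lowest in 92.1 of the 3 lines for 5 of the 7 genes and highest for 0. Over all tested genes, it was lowest in 92.1 for 35.2% and highest for 25.3%. Of 16 cytokines 5 were 2-fold higher in 92.1: IL32 (6.97 and 11.59), TNF (5.42 and 7.58), IL24 (5.23 and 7.28), TNFSF13B (5.95 and 7.74) and CSF1 (7.93 and 9.49). TNF itself differed by 0.65 in Mel 270 and 0.58 in Mel 290.

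Adhesion molecules were 2-fold higher in 3 of 13 cases, against 3.63% of all tested genes. ICAM1, which binds the integrin LFA-1 of leukocytes, stood at 8.74 alone and 12.28 with T cells. VCAM1, the ligand of the integrin VLA-4, stood at 4.82 and 9.73, against 4.77 and 5.05 in Mel 270 and 4.58 and 5.86 in Mel 290. JAM2, a junctional adhesion molecule, stood at 5.64 and 7.38. Among cell death genes, PMAIP1, which encodes the pro-apoptotic NOXA, went from 8.18 to 11.83 and BCL2L11, which encodes BIM, from 7.08 to 8.21, the 2 of 14 BCL2 family members that passed 2-fold. MLKL, the executor of necroptosis, was 1.96 higher in 92.1. FAS (6.85 and 8.35), CASP8 (5.96 and 7.24) and CFLAR (7.11 and 8.29) were the other 3 of 12 death receptor genes above 2-fold. Another CFLAR probe set gave a difference of 0.98 in 92.1, less than 2-fold. CASP1 (3.83 and 6.98) and CASP4 (5.39 and 8.25), inflammatory caspases, were the 2 of 6 inflammasome genes.

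**Figure D2:**
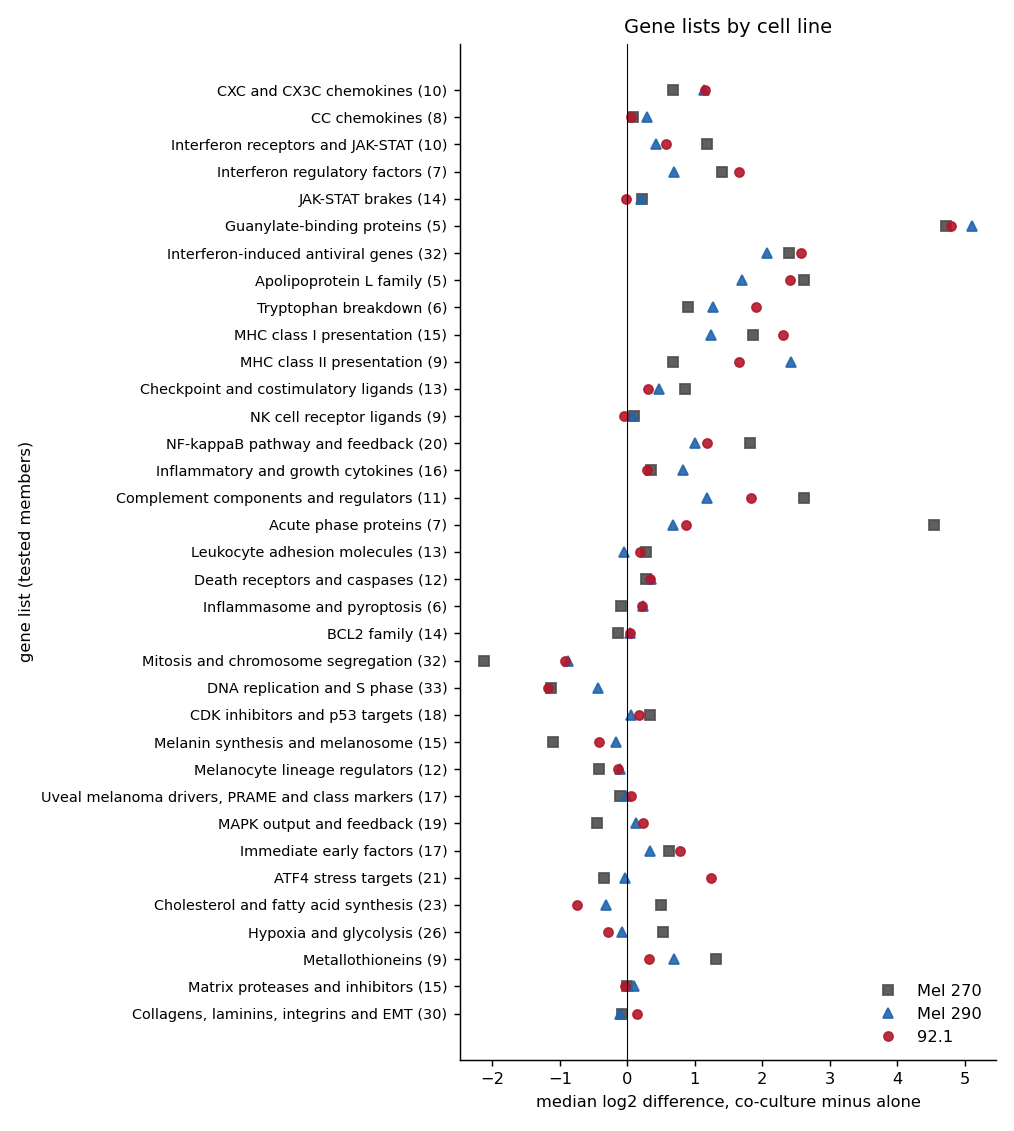
Median log2 difference (co-culture minus alone, x axis) of each gene list (y axis, tested members in brackets) in 92.1 (circles), Mel 270 (squares) and Mel 290 (triangles). 92.1 lies to the right of both other lines for ATF4 stress targets (1.24, -0.34 and -0.03) and to their left for cholesterol and fatty acid synthesis (-0.75, 0.49 and -0.32).

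Stress genes of the ATF4 pathway were higher in 92.1. ATF4 is a transcription factor whose translation increases when amino acids are short or proteins misfold, and it induces genes of amino acid synthesis and import. Of 21 tested members 13 were at least 2-fold higher and none 2-fold lower in 92.1, against 3.63% of all tested genes, with a median of 1.24 against -0.08 over all tested genes. In Mel 270, 3 were higher and 5 lower (median -0.34), and in Mel 290, 0 were higher and 1 lower (median -0.03). In 18 of the 21 genes the difference was highest in 92.1 of the 3 lines, which held for 25.3% of all tested genes. The list was chosen with earlier results of these data known, so its counts are a description.

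ASNS, which makes asparagine, stood at 7.31 alone and 9.92 with T cells in 92.1, against 9.96 and 8.47 in Mel 270 and 8.65 and 8.68 in Mel 290. CTH, an enzyme of cysteine synthesis, stood at 7.50 and 9.73. CHAC1, which breaks down glutathione, stood at 8.55 and 10.78, against 8.39 and 7.98 in Mel 270 and 7.53 and 7.55 in Mel 290. The 3 genes were thus higher with T cells in 92.1, and lower or within 0.5 of their level alone in the other lines. SLC7A11, the cystine importer, stood at 9.38 and 11.43 in 92.1, whereas it differed by -1.06 in Mel 270 and -1.05 in Mel 290. DDIT3, which encodes the stress factor CHOP, stood at 6.93 and 8.81, from a level alone below those of Mel 270 (8.33) and Mel 290 (9.49). ATF4 itself stood at 10.05 and 11.29, and differed by 0.47 in Mel 270 and 0.35 in Mel 290. Another ATF4 probe set gave a difference of 0.80 in 92.1, less than 2-fold. PHGDH (-0.06), the first enzyme of serine synthesis, and VLDLR (0.03) were near 0.

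Outside this list, and chosen after their values were seen, GDF15 (8.04 and 10.52), a stress cytokine, and NUPR1 (8.82 and 11.44), a stress-induced nuclear protein, were also higher in 92.1. GDF15 differed by 0.21 in Mel 270 and -0.09 in Mel 290, and NUPR1 by -0.22 and 0.22. The C/EBP-ATF response element (CARE) core, a motif chosen after these values were seen (TGATGNAA, or TTNCATCA on the other strand), is in capitals in 2 promoters. It lies in ASNS at chr7:97872459-97872486 (minus strand, 78 to 51 bases before a start) and in CHAC1 at chr15:40953252-40953279 (plus strand, 219 to 192 bases before).
ASNS: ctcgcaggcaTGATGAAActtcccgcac
CHAC1: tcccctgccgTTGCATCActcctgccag
It stood in 2 of 28 promoters of the list (7.14%), against 1.77% of all promoters of tested genes.

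Of 23 cholesterol and fatty acid synthesis genes 19 were below 0 in 92.1, against 60.1% of all tested genes, and 2 were 2-fold lower, against 2.71%: FASN, the fatty acid synthase (10.91 and 9.38), and HMGCS1, an early enzyme of cholesterol synthesis (11.80 and 10.50). The median was -0.75 in 92.1 against 0.49 and -0.32 in Mel 270 and Mel 290. The difference was lowest in 92.1 for 16 of the 23, which held for 35.2% of all tested genes. HMGCS1 differed by 1.05 in Mel 270 and -0.35 in Mel 290. Of 26 hypoxia and glycolysis genes 18 were below 0 and 1 was 2-fold lower, both close to the shares of all tested genes. That gene was LDHA, which makes lactate (11.98 and 10.88). HK2, a hexokinase, stood at 9.08 and 8.22 in 92.1, against 8.90 and 10.66 in Mel 270. The median of the list was -0.28 in 92.1, 0.52 in Mel 270 and -0.08 in Mel 290.

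**Figure D3:**
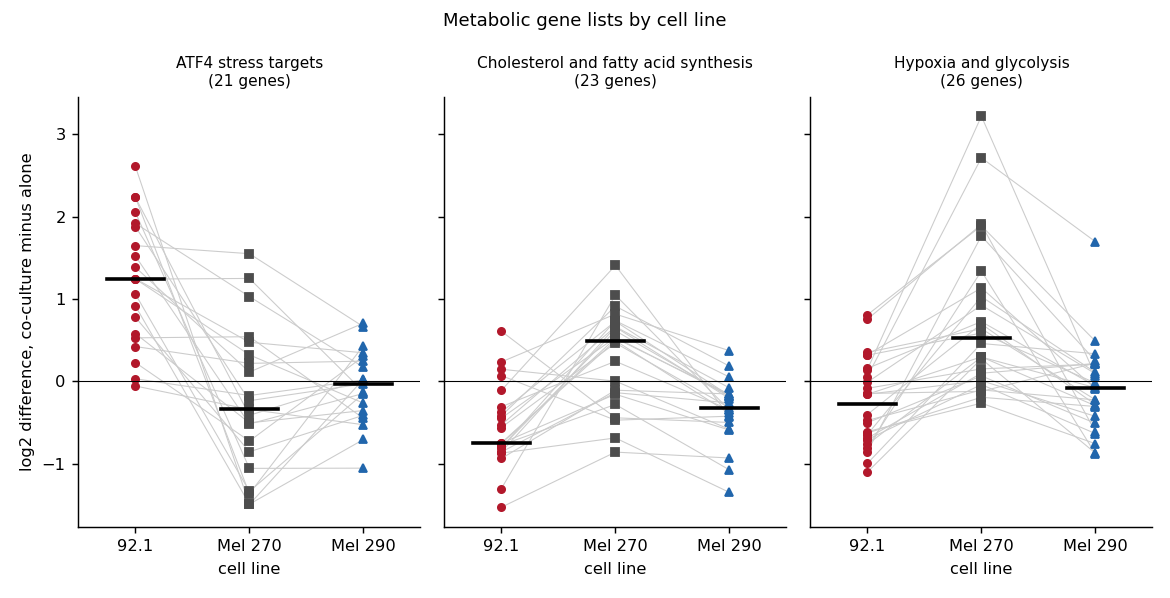
Log2 difference (co-culture minus alone, y axis) of each tested member of 3 metabolic lists in the 3 lines. Symbols are genes, grey lines join the same gene across lines and black bars are medians. ATF4 stress targets lie mostly above 0 in 92.1 alone of the 3 lines, and most cholesterol and fatty acid synthesis genes lie below 0 in 92.1 and above it in Mel 270.

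Proliferation genes were lower in 92.1, those of DNA replication and those of mitosis alike. All 33 tested DNA replication genes were below 0 and 20 were at least 2-fold lower, against 2.71% of all tested genes (median -1.18). GINS2, a subunit of the replicative helicase, stood at 10.50 alone and 8.41 with T cells, and MCM10, a replication initiation factor, at 8.90 and 7.19. All 32 mitotic genes were below 0 too, and 11 were 2-fold lower (median -0.92), among them MAD2L1 (8.96 and 7.48) and CCNA2 (10.24 and 8.84). In Mel 270 the medians were -1.13 for S phase and -2.12 for mitosis, and in Mel 290 they were -0.43 and -0.87. NDC80, a kinetochore protein, differed by -0.03 in 92.1 and -2.01 in Mel 270. CDKN1A, the cell cycle inhibitor p21, stood at 8.53 and 9.21, a difference of 0.68 against 1.90 in Mel 270.

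Of 15 tested melanin and melanosome genes all were below 0, against 60.1% of all tested genes, and 5 at least 2-fold lower, against 2.71% (median -0.42): SLC45A2 (10.02 and 7.52), TYR (10.96 and 9.39), RAB38 (12.41 and 11.06), OCA2 (10.24 and 8.99) and SLC24A5 (10.48 and 9.39). TYR is the first enzyme of melanin synthesis, and SLC45A2, OCA2 and SLC24A5 are melanosomal transport proteins. The difference of SLC45A2 was -2.51 in 92.1 against -1.10 and -1.39 in Mel 270 and Mel 290, but it was near or below the filter in both other lines (6.56 and 6.66 alone). TYRP1 differed by -0.11. The receptor ERBB3 (8.69 and 7.35) was the 1 of 12 lineage regulators 2-fold lower.
The M-box core (TCATGTG, or CACATGA on the other strand), bound by MITF, is shown in capitals in TYR at chr11:89177760-89177786 (plus strand, 115 to 89 bases before the start).
TYR: gaaaagtcagTCATGTGcttttcagag
It stood in 5 of 16 promoters of the pigment list (31.2%) and in 1.59% of all promoters of tested genes.

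**Figure D4:**
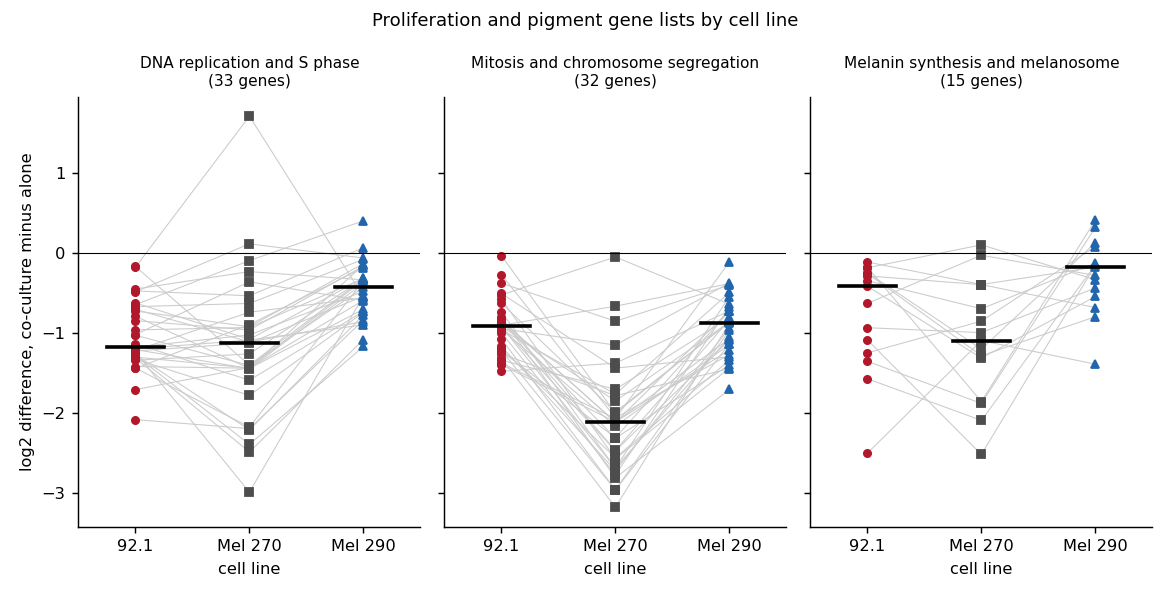
Log2 difference (co-culture minus alone, y axis) of each tested member of the S phase, mitosis and pigment lists in the 3 lines. Symbols are genes, grey lines join the same gene and black bars are medians. In 92.1 every gene of the 3 lists lies below 0, and the S phase median (-1.18) is close to that of Mel 270 (-1.13), while the mitosis median (-0.92) is closer to that of Mel 290 (-0.87).

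Most of the largest losses in 92.1 were of other kinds. PKIA, an inhibitor of protein kinase A, stood at 9.38 alone and 5.99 with T cells. MTARC1, a mitochondrial amidoxime-reducing enzyme, stood at 9.19 and 5.85. Both were near or below the filter in the other lines, at 5.22 and 6.02 alone for PKIA and 5.47 and 5.30 for MTARC1. STK32A, a kinase, stood at 8.92 and 5.73, and differed by -3.36 in Mel 270. The other 9 of the 12 largest losses were PRUNE2, CDH7, MGAT4A, GPR161, NRG3, SLC45A2, PDE3A, SEMA3C and MMP16, with differences from -3.03 to -2.46. CDH7, MGAT4A and NRG3 also fell in Mel 270 (-2.43, -2.33 and -1.97), and PRUNE2 in Mel 290 (-2.25). GPR161 and SEMA3C each differed by 0.24 in Mel 270. GPR161, a receptor of the cilium, stood at 10.77 and 8.12, and at 7.41 to 7.65 on the 4 arrays of the other lines.

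Driver genes and class markers differed by less than most groups above. Over all tested genes, 3.63% were 2-fold higher and 2.71% 2-fold lower. Where only 1 or 2 members of a list passed 2-fold, the count is not read as a result about the list. GNAQ (10.34 and 9.80) and GNA11 (9.49 and 9.35), the G protein subunits whose mutation drives most uveal melanomas, were less than 2-fold apart. Of 17 tested genes in this list 2 were 2-fold lower, LTA4H (9.53 and 8.52) and ID2 (10.07 and 7.86), both known as markers of the class with the better outcome. ID2, an inhibitor of helix-loop-helix factors, differed by 0.97 in Mel 270 and 0.46 in Mel 290. Of 19 MAPK output genes 3 were higher: IER3 (1.69), EGR1 (1.31) and DUSP5 (1.24). The phosphatase DUSP6 differed by 0.67 in 92.1 and -1.03 in Mel 270. Of 17 immediate early genes 7 were higher, led by ZFP36 (6.70 and 8.99) and FOSL2 (6.76 and 8.99). FN1, a matrix protein (8.04 and 10.48), and the integrin chain ITGA2 (8.11 and 9.86) led the matrix list, in which 4 of 30 passed 2-fold. Of 15 matrix proteases and inhibitors, MMP16 was 2-fold lower. Of 9 metallothioneins, MT2A (difference 1.17) was 2-fold higher, and their median was 0.32 in 92.1 against 1.31 in Mel 270 and 0.69 in Mel 290. Other MT2A probe sets gave 0.92 and 0.97 in 92.1, less than 2-fold. Among 18 CDK inhibitors and p53 targets, SESN2 (1.38), also an ATF4 target, was 2-fold higher.

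The last comparison asked which differences in 92.1 departed from those of the other lines. Counted with low values raised, 115 genes (0.833%) were 2-fold higher in 92.1 and also 2-fold beyond each other line, and 47 (0.34%) were lower by the same rule. These counts depend on the lines and the filter: without Mel 270 they were 274 and 139, without Mel 290 157 and 78, and with the filter at the median 72 and 25. The same rule gave 227 higher (1.64%) and 163 lower genes (1.18%) in Mel 270, and 47 (0.34%) and 106 (0.768%) in Mel 290. The only test the design allows, a limma contrast of the difference in 92.1 minus the mean of the other 2, takes its error from how Mel 270 and Mel 290 differ. By it no gene passed an adjusted p of 0.05 (0% higher and 0% lower), and 245 higher and 162 lower genes had an unadjusted p under 0.05, together 2.95% of those tested. No gene is therefore called particular to 92.1, and the values below are a description.

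ZP4, which encodes a glycoprotein of the egg coat, lay farthest beyond both other lines. It stood at 4.75 alone and 13.07 with T cells in 92.1, at 4.92 and 4.68 in Mel 270 and at 4.85 and 5.43 in Mel 290. On the 5 arrays other than 92.1 with T cells it was below the filter (contrast 8.15). LRP2, an endocytic receptor also known as megalin, stood at 6.80 and 11.28 in 92.1 and at or below 4.92 on the other 4 arrays (contrast 4.29). HAPLN3, a matrix link protein, stood at 7.26 and 10.42, and between 6.96 and 7.36 on the other 4. CYP1B1, a cytochrome P450 enzyme, stood at 5.87 and 9.31 in 92.1. SLC35F1 (7.61 and 10.18) and SFRP1, a secreted WNT inhibitor (9.33 and 11.79), completed the group with VCAM1, SLC7A11 and ASNS above. ZP4, LRP2 and VCAM1 passed the filter only through 92.1 with T cells. The whole group was picked by its difference in 92.1, so the contrasts of its genes are no support, and limma called none.

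IFI16, a sensor of DNA, had a difference of 5.74 in 92.1 against 0.94 and 1.92 in Mel 270 and Mel 290 (contrast 4.31 ± 0.51 SE, limma adjusted p = 0.455). With T cells its level was 10.43 in 92.1, 11.002 in Mel 270 and 9.33 in Mel 290, while alone it was 4.69, 10.06 and 7.41. The lines thus differed in IFI16 mainly when grown alone. Below both other lines lay CCL5, SAA2, CFB, IL6 and ID2 above, next to PKIA, MTARC1 and GPR161. GCH1, the first enzyme of tetrahydrobiopterin synthesis, stood at 7.22 and 8.27 in 92.1 and differed by 3.69 in Mel 270 and 3.61 in Mel 290. CP, which encodes the copper protein ceruloplasmin, stood at 4.36 and 4.71 in 92.1 and differed by 5.20 and 3.14 in the other lines.

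**Figure D5:**
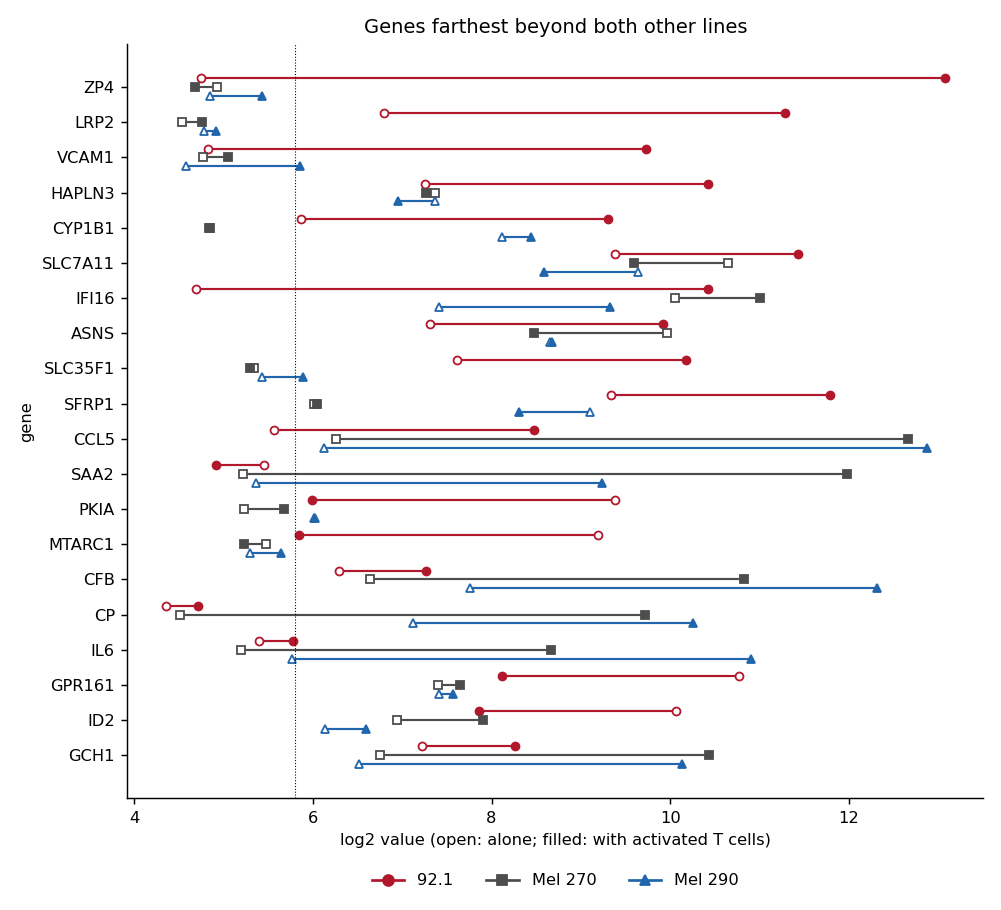
Log2 value (x axis) on the 6 arrays of the 20 genes (y axis) whose difference in 92.1 lies farthest above or below those of both other lines, with values below 5.80 (dotted line) raised to it for the ranking. Open symbols are cells alone, filled symbols cells with activated T cells, and circles, squares and triangles are 92.1, Mel 270 and Mel 290. ZP4 reaches 13.07 on 1 array and stays below 5.80 on the other 5.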

How the data were processed

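The authors deposited log2 values of 33297 probe sets on 6 arrays, made with Affymetrix Expression Console 1.2.0.20, per the submitters' processing notes; the sources used here do not give the background correction, summarization or normalization. Array medians ran from 6.63 to 6.69, so values were used as deposited, and the number of arrays limits the precision.

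The array annotation gave 19460 probe sets 1 gene symbol and 1754 several; 12083 were not listed and stay unnamed. Symbols were updated through a RefSeq gene table (GRCh38.p14; 19433 matched). The probe set with the highest mean was kept per gene (647 tested genes had several), and 13808 of 18417 genes passed the filter of 5.80. Differences are co-culture minus alone. The contrast of 92.1 with the other lines used limma 3.58.1 in R 4.3.3 (cell line as a block, 1 residual degree of freedom plus a prior of 4.08, Benjamini-Hochberg over all tested genes), checked on simulated data. Its error is the spread between 2 lines, not between repeat cultures. Samples were grouped by title.

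Named genes were the 20 largest gains and 12 largest losses in 92.1, the 10 farthest above and below both other lines, and members of 40 lists. The members and lists were chosen with earlier results of these data known. Alternatives changed the normalization (quantile, cyclic loess), the filter, the choice of probe set, the raising of low values, the fold threshold, the prior variance, the block and the lines compared.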

Additional observations from a re-analysis of the deposited data

Results flagged for a closer look

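Several differences in 92.1 had the opposite sign to those of both other lines, and none of these contrasts was called by limma. Among named genes these were GPR161 (-2.65 in 92.1, 0.24 in Mel 270 and 0.15 in Mel 290), HAPLN3 (3.17, -0.10 and -0.41), SLC7A11 (2.05, -1.06 and -1.05), SAA2 (-0.55, 6.76 and 3.88) and ID2 (-2.20, 0.97 and 0.46). SAA2 lay below the filter level on both arrays of 92.1. Among list medians, where the difference between lines was not tested, they were ATF4 stress targets (1.24, -0.34 and -0.03), JAK-STAT brakes (-0.026, 0.22 and 0.20), NK cell receptor ligands (-0.057, 0.10 and 0.09), uveal melanoma drivers and class markers (0.059, -0.11 and -0.02), and collagens, laminins, integrins and EMT genes (0.15, -0.07 and -0.10). All of these list medians other than that of the ATF4 targets were within 0.25 of 0 in each line.

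Probe sets without a gene name here also differed in 92.1. Of 6032 with a mean at or above the filter level, 209 were at least 2-fold higher with T cells and 49 at least 2-fold lower. Of the 13808 tested genes, 501 (3.63%) were higher and 374 (2.71%) lower. The share higher was thus close to that of tested genes, and the share lower was smaller. Probe set 7917528 stood at 4.26 alone and 10.77 with T cells in 92.1, a difference of 6.51 against 3.27 in Mel 270 and 0.28 in Mel 290.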

How the results depend on the processing

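Every count of 2-fold differences depends on its threshold: in 92.1 it was 171 higher and 23 lower at 4-fold, and 1077 and 1384 at 1.5-fold. Genes beyond both other lines numbered 72 higher and 25 lower with the filter at the median. They numbered 274 and 139 without Mel 270, and 157 and 78 without Mel 290. With 92.1 on 1 array a side, no replicate of it could be left out.

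The limma contrast called 0 genes in each direction under every alternative run. The design's block is the cell line, and without this replicate block it called 0 higher and 0 lower, with 41 and 28 at an unadjusted p under 0.05. The adjusted p of ZP4 ran from 0.0882 with a trend in the prior variance to 1 without the block.

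List medians moved mainly where the filter changed which genes were tested. With the filter at the median they were 7.51 for CXC, 1.50 for CC chemokines, 5.97 for guanylate-binding proteins, 2.87 for antiviral genes, 4.18 for APOL genes, 3.68 for tryptophan breakdown, -0.57 for NK ligands, 0.82 for cytokines, 0.88 for death receptors and 0.60 for retinal pigment epithelium and endothelium markers. They changed sign for the BCL2 family (-0.082), matrix proteases (0.039), monocyte (0.13) and B cell markers (1.83), and the platelet list gave no value. Without a filter they were 0.40 for CXC chemokines, 4.50 for guanylate-binding proteins, 2.24 for antiviral genes and 0.17 for death receptors, and the sign changed for retinal pigment epithelium and endothelium (-0.052) and for uveal melanoma drivers (-0.091). With low values raised, they were 0.87 for CXC chemokines, 3.55 for guanylate-binding proteins and 1.25 for tryptophan breakdown. Cyclic loess gave 0.39 for death receptors.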
